A study of Sus scrofa with 14 samples.

Results

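Secretin (SCT), the homeobox factor PDX1 and 5 further genes of the hormone-producing cells of the gut, CCK, GCG, GHRL, SST and CHGA, were examined in the mucosa of pig small intestine that had been perfused with digested onion or with a saline digest. These 7 genes were taken out of 3021 genes that could be named on the array. They were read by 9 of its 43603 probes, of which 8 were named by the RefSeq accession printed on the array and that of SCT by the gene table published with the study. SCT and PDX1 were chosen by their onion over saline ratios, which were raised in these same pigs, and the other 5 genes were put beside them with those ratios known. The onion over saline values of the 7 genes are therefore given as a description, without a p-value for any member.

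In the pig SISP model, a perfusion of small intestinal segments in situ, stretches of the gut of an anaesthetised pig are closed off with their blood and nerve supply left intact and are then perfused. Male piglets of 5 weeks and 8.2 kg were used, and their paired segments lay between 31 and 58% of the length of the small intestine. Each segment was filled with 20 ml of fluid and, after 30 min, perfused with 2 ml every 15 min for 6 h, after which the caudal 10 cm was dissected and scraped. Pigs 1, 2 and 4 gave 1 segment with digested yellow onion (YOd) and 1 with the saline digest (Sd), and pigs 5, 6, 7 and 8 gave 1 segment with digested white onion (WOd) and 1 with Sd, so that 14 arrays from 7 pigs were compared. Both kinds of digest had gone through the same in vitro digestion with porcine enzymes and bile, but the onion digests were diluted in peptone and Sd was diluted further and in saline. Onion, peptone and the strength of the digest therefore changed together and cannot be told apart. The segments of a pair lay next to each other, and the labels do not say which of them was nearer to the stomach. The scrapings hold many cell types, so a higher signal from more cells of a type and one from more RNA per cell cannot be told apart.

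Enteroendocrine cells are scattered singly among the absorptive cells of the gut epithelium and release peptide hormones from granules when nutrients, acid or bile reach them. Which hormones are made changes along the gut. Secretin, cholecystokinin, ghrelin and motilin are mostly products of the stomach, duodenum and upper jejunum, whereas the glucagon-like peptides are made in rising amounts towards the ileum and colon. PDX1 is a homeobox transcription factor of the pancreas and the duodenum, where it is present in the epithelium at large and not only in hormone cells.

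Levels are given as the log2 of the signal over the 75th percentile of the same array, so that 0 is the level of a gene at that percentile. They can be compared between arrays for 1 gene but not between genes, since each probe binds with its own strength. All 7 genes lay above the lower limit of −4.43 that was set for dim signals, and well above background, on 14 of 14 arrays, and none was saturated. The share of probes well above background ran from 50.05 to 70.7% over the arrays. The Sd arrays of pigs 2 and 7 sat on a slide scanned in a second session, apart from the onion arrays of the same pigs, while the other 5 pairs each shared a slide. Pig 2 also stood apart in its ratios. Of 2401 genes, 2.08% were over 1.5-fold higher and 0.58% over 1.5-fold lower with YOd in pig 2, against 5.62 to 18.4% and 3.75 to 8.37% with onion in the other 6 pigs. Fold changes without pigs 2 or 7, and correlations of ratios without the 2 pigs farthest from the median, are given beside the results. The absorptive epithelium was present on every array, with a summed level of 5 enterocyte genes of 337 to 693 times the 75th percentile, and the ileal bile acid transporter SLC10A2 was above the lower limit on 12 of 14 arrays. Several of these enterocyte genes ran close to a saturated hormone probe, as described below, so their sum marks presence and not amount.

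SCT encodes secretin, which makes the pancreas release bicarbonate when acid enters the duodenum. Its Sd level in pigs 1, 2 and 4 was 1.53, 0.24 and 1.82, and with YOd it was 3.46, 0.23 and 3.13 in the same pigs. In the WOd pigs 5 to 8 the Sd level was 0.78, −0.91, 0.63 and 1.27, and the WOd level was 3.31, −0.25, −0.26 and 2.13. The highest levels were those of the onion segments of pigs 1, 4 and 5, and the onion and Sd groups overlapped. Within pigs the onion over Sd log2 ratio was 1.94, −0.01 and 1.31 with YOd, and 2.53, 0.66, −0.89 and 0.86 with WOd. SCT was thus higher with onion in 5 of 7 pigs, by 1.58 to 5.79-fold, level in pig 2, and lower in pig 7, where the onion segment held 0.540 of the Sd signal.

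PDX1 was raised in the same 5 pigs but stayed level, not lower, in pig 7. In pigs 1, 2 and 4 its Sd level was 0.48, −0.68 and 1.16, against 2.26, −0.70 and 3.16 with YOd. In pigs 5 to 8 its Sd level was 2.16, −0.61, 0.39 and 1.35, against 3.08, 0.80, 0.44 and 2.81 with WOd. Pigs 4, 5 and 8 had the highest levels with onion, and pig 2 the lowest under either perfusate. The log2 ratio was 1.78, −0.02 and 2.00 with YOd and 0.93, 1.41, 0.05 and 1.46 with WOd. A further PDX1 probe was above the lower limit on 1 of 14 arrays and could not be used as a check.

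**Figure D1:**
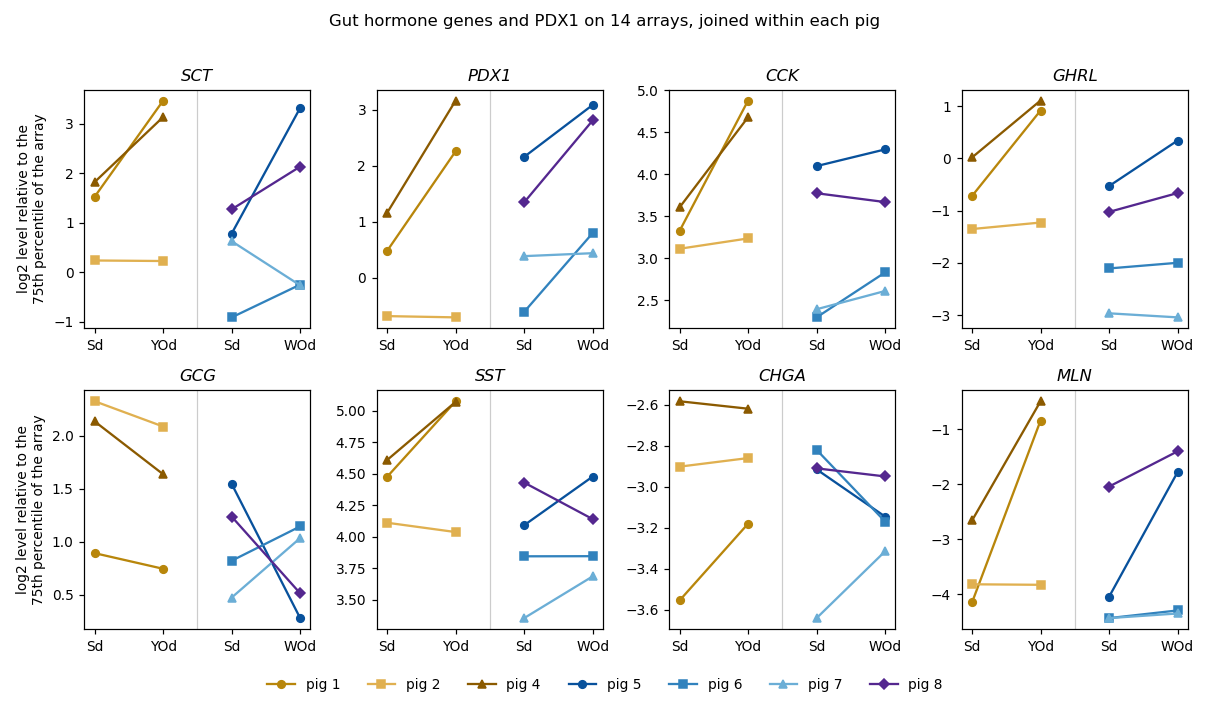
Levels of the 7 genes and of motilin (MLN) on 14 arrays, as log2 of the signal relative to the 75th percentile of the array, with a line joining the Sd and onion segments of each pig and a scale of its own for each gene. SCT and PDX1 climb in pigs 1, 4, 5, 6 and 8, while CHGA spans only −3.64 to −2.58 over all arrays.

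Among the other hormone genes, the 2 of the upper gut behaved most like SCT in the YOd pigs. CCK encodes cholecystokinin, which contracts the gall bladder and calls for pancreatic enzymes. Its Sd level was 3.33, 3.11 and 3.61 in pigs 1, 2 and 4 and 4.10, 2.29, 2.39 and 3.77 in pigs 5 to 8. Its onion level was 4.88, 3.23 and 4.68 with YOd and 4.30, 2.83, 2.61 and 3.67 with WOd. The log2 ratio was 1.55 in pig 1 and 1.07 in pig 4, and lay between −0.11 and 0.54 in the other 5 pigs. A second CCK probe gave 1.55 and 1.14 in pigs 1 and 4 and −0.21 to 0.39 in the others.

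GHRL encodes ghrelin, the hunger hormone of the stomach and upper gut. With Sd its level was −0.72, −1.35 and 0.02 in pigs 1, 2 and 4, and −0.53, −2.11, −2.97 and −1.03 in pigs 5 to 8. With onion the level was 0.91, −1.23 and 1.11 after YOd and 0.34, −2.001, −3.05 and −0.67 after WOd. The log2 ratio was 1.63, 0.12 and 1.09 with YOd and 0.87, 0.11, −0.08 and 0.36 with WOd. The pigs with the largest rises were again 1, 4 and 5.

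GCG encodes the precursor of the glucagon-like peptides of the L cell and did not follow SCT. Its Sd level was 0.89, 2.33 and 2.14 in pigs 1, 2 and 4 and 1.55, 0.82, 0.47 and 1.24 in pigs 5 to 8, and its onion level was 0.75, 2.09 and 1.64 with YOd and 0.28, 1.15, 1.04 and 0.51 with WOd. It was lower with onion in 5 of 7 pigs, most of all in pig 5 (log2 ratio −1.27), and its highest ratio, 0.56, was in pig 7, the pig in which SCT was lower.

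SST encodes somatostatin, which the D cell releases to restrain its neighbours, and CHGA encodes chromogranin A, a granule protein that serves as a general marker of endocrine cells. SST had Sd levels of 4.48, 4.11 and 4.61 in pigs 1, 2 and 4 and of 4.09, 3.84, 3.35 and 4.43 in pigs 5 to 8. With onion it was at 5.08, 4.04 and 5.07 after YOd and at 4.48, 3.85, 3.68 and 4.14 after WOd. Its log2 ratio stayed between −0.29 and 0.60. CHGA had Sd levels of −3.56, −2.90 and −2.58 in pigs 1, 2 and 4 and of −2.92, −2.82, −3.64 and −2.91 in pigs 5 to 8, and onion levels of −3.18, −2.86 and −2.62 with YOd and −3.15, −3.17, −3.32 and −2.95 with WOd. Its ratio ran from −0.35 to 0.37, above 0 in 3 of 7 pigs. The CHGA signal was dim, not far above the lower limit of −4.43, which can understate a change. The 5 other granule genes tested, described below, had median log2 ratios of 0.75, 0.58 and 0.19 in pigs 1, 4 and 5. In pigs 6 and 8 their medians were −0.09 and −0.11, in pig 2 0.06, and in pig 7, where SCT was lower, 0.40. CHGA alone therefore does not show whether endocrine cells as a whole changed.

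**Figure D2:**
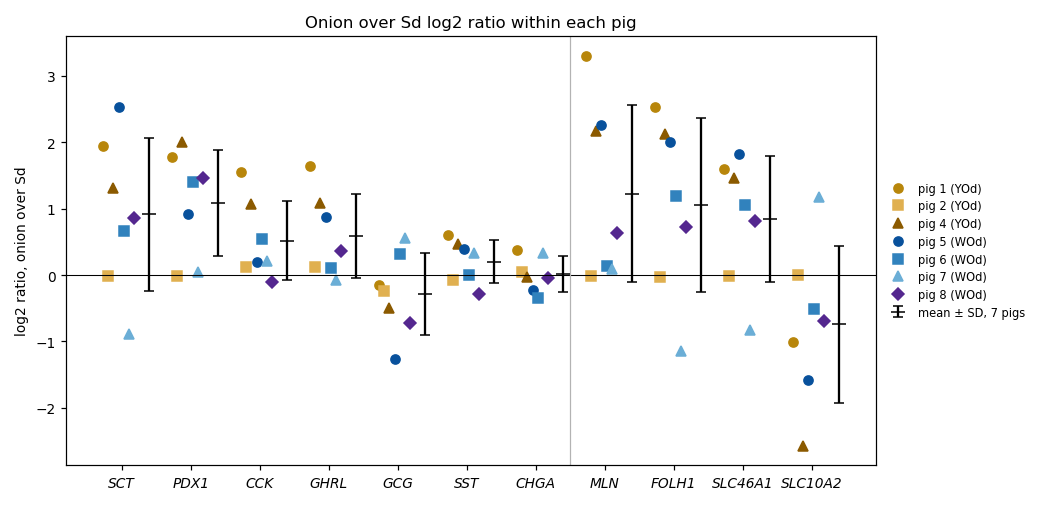
Onion over Sd log2 ratio of each gene in each of 7 pigs (points), with the mean and SD over the pigs beside them. The members stand left of the grey line, and motilin, the folate genes FOLH1 and SLC46A1 and the ileal SLC10A2 right of it. Pig 2 lies close to 0, from −0.24 for GCG to 0.12 for CCK and GHRL, and pig 7 lies on the other side of 0 from pigs 1, 4 and 5 for SCT, FOLH1, SLC46A1 and SLC10A2.

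Set in order by group mean, SCT stood highest with YOd, at 2.27 ± 1.78 (SD, n = 3). It was followed by WOd at 1.23 ± 1.79 (SD, n = 4), Sd of pigs 1, 2 and 4 at 1.20 ± 0.84 (SD, n = 3) and Sd of pigs 5 to 8 at 0.44 ± 0.94 (SD, n = 4), and no neighbours in that order differed by more than their SD. PDX1 had its highest mean with WOd, at 1.78 ± 1.36 (SD, n = 4), then with YOd at 1.57 ± 2.02 (SD, n = 3), in Sd of pigs 5 to 8 at 0.82 ± 1.20 (SD, n = 4) and in Sd of pigs 1, 2 and 4 at 0.32 ± 0.93 (SD, n = 3). Here too the spread between pigs was wider than each step. The spread of SCT among the 7 Sd segments alone was 6.63-fold from lowest to highest, that of PDX1 7.16-fold and that of GHRL 7.91-fold, against 2.08-fold for CHGA and 2.39-fold for SST.

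The paired YOd/Sd comparison asked which genes YOd moved within pigs 1, 2 and 4. By limma with the pig as a block, the mean log2 fold change was 1.25 (SE 0.38) for PDX1, 1.08 (SE 0.35) for SCT, 0.95 (SE 0.28) for GHRL and 0.92 (SE 0.27) for CCK. These 4 of 7 members were past the thresholds of the study's methods, a raw p under 0.05 and a fold change over 1.5, and all 4 were upregulated. Over all 2450 genes tested, 4.57% were past them, 3.63% upregulated. The members were chosen with these ratios known. Counts of members past the thresholds, here and in the comparisons that follow, are therefore a description and not a test against that share. SST, at 0.33 (SE 0.18), GCG, at −0.29 (SE 0.15), and CHGA, at 0.13 (SE 0.15), were not. The median of the 7 members was 0.92, and that of all genes tested was 0.14. No gene of the array reached a Benjamini-Hochberg adjusted p under 0.05 in this limma comparison, the lowest being 0.386, while 275 had a raw p under 0.05. Without pig 2, in which no member moved, the values of PDX1, SCT, GHRL and CCK were 1.89, 1.62, 1.36 and 1.31, and without pig 1 or without pig 4 no member was past the thresholds. None was past them in the authors' processed values, with all named genes tested or without the pig as a block. With no scaling between arrays the median of all genes moved to −0.16 and 7 of 102 genes past the thresholds were upregulated, against 89 of 112 with it, and PDX1 was still higher by 0.94 while GCG, at −0.60, was past them as downregulated.

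In the WOd/Sd comparison over pigs 5 to 8, PDX1 alone of the 7 members was past the thresholds, with a log2 fold change of 0.96 (SE 0.25). Of 2430 genes tested, 1.19% were past them, 0.782% upregulated. SCT was at 0.79 (SE 0.48), GHRL at 0.32 (SE 0.19), CCK at 0.21 (SE 0.16), SST at 0.11 (SE 0.17), CHGA at −0.07 (SE 0.17) and GCG at −0.28 (SE 0.32). The median over members was 0.21, that over all genes 0.05, and the lowest adjusted p of any gene by limma was 0.999, with 67 genes at a raw p under 0.05. Without pig 7, SCT was at 1.35 and PDX1 at 1.26 and both were past the thresholds. Without pig 5, SCT was at 0.21 and GCG at 0.05.

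Taken as 1 group of 7 pigs, the onion segments had PDX1 higher by a log2 fold change of 1.09 (SE 0.25), SCT by 0.91 (SE 0.34) and GHRL by 0.59 (SE 0.20), and these 3 of 7 members were past the thresholds. Among all 2401 genes tested, 1.29% were past them, 1% upregulated. CCK, at 0.51 (SE 0.19), fell short of 1.5-fold, and SST, CHGA and GCG were at 0.20 (SE 0.13), 0.01 (SE 0.11) and −0.28 (SE 0.20). In this limma fit 170 genes had a raw p under 0.05 and the lowest adjusted p was 0.606. In the 5 pigs whose arrays shared a slide, PDX1 was at 1.51, SCT at 1.46, GHRL at 0.81 and CCK at 0.65, all 4 past the thresholds. SCT fell below them without pig 1, 4 or 5, at 0.74, 0.85 and 0.64, as did GHRL, at 0.41, 0.50 and 0.54, whereas PDX1 stayed past them whichever pig was left out, but not, at 0.58, as the mean of its 2 probes. The comparison shares its Sd segments with YOd/Sd and WOd/Sd, so the 3 sets of values are not independent.

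Whether YOd and WOd differed in these genes was fitted as the difference between their effects. None of the 7 members was past the thresholds, against 3.52% of 2498 genes tested, and the lowest adjusted p by limma was 0.853. The widest differences, YOd minus WOd, were those of CCK, 0.70 (SE 0.33), and GHRL, 0.63 (SE 0.37). For SCT, at 0.29 (SE 0.74), and PDX1, at 0.29 (SE 0.52), the error was larger than the difference. Without pig 2, CCK was at 1.10 and GHRL at 1.05 and both were past the thresholds.

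Pig by pig, the likeness of SCT and PDX1 to the other hormone genes depended on which pigs were counted. Across the 7 ratios, which were the values that chose both genes, Pearson's r of SCT was 0.80 with GHRL, 0.65 with PDX1, 0.41 with CCK, 0.40 with SST, −0.29 with CHGA and −0.75 with GCG. For PDX1 it was 0.69 with GHRL, 0.63 with CCK, 0.26 with SST, −0.19 with CHGA and −0.28 with GCG. With the 2 pigs farthest from the median SCT ratio (5 and 7) left out, r of SCT was 0.93 with GHRL, 0.85 with PDX1, 0.83 with CCK, 0.78 with SST, 0.56 with CHGA and −0.11 with GCG, so the low and negative values rested on those pigs. With the 2 pigs farthest from the median PDX1 ratio (2 and 7) left out, r of PDX1 was 0.42 with GHRL, 0.70 with CCK, 0.29 with SST, 0.57 with CHGA and 0.48 with GCG. Over 7 pigs GHRL was thus the closest of the 5 to both genes, but without pigs 2 and 7 it was not the closest to PDX1. The sign of the ratio was the same for SCT and GHRL in 6 of 7 pigs, for SCT and PDX1 in 6, for SCT and GCG in 2 and for SCT and CHGA in 1. These counts include pig 2, where SCT was level and its sign carries little. The ratios of 1 pig share both of its arrays, and no test was made on them.

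**Figure D3:**
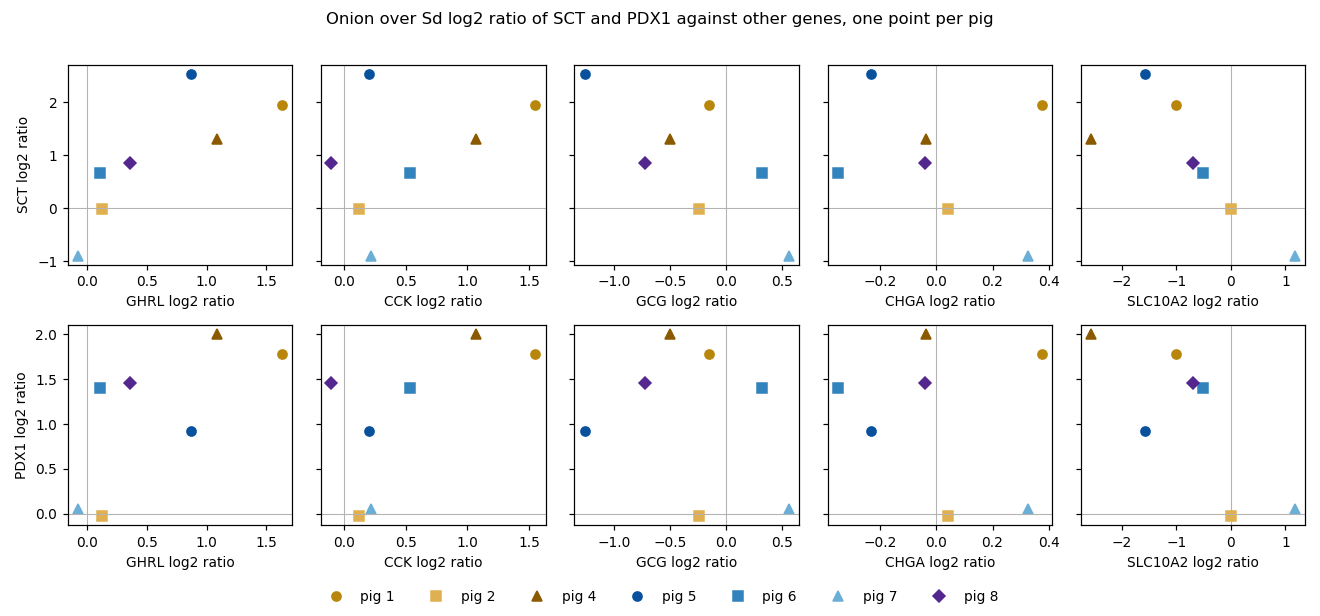
Onion over Sd log2 ratio of SCT (top) and PDX1 (bottom) against the ratios of GHRL, CCK, GCG, CHGA and SLC10A2, with 1 point for each of 7 pigs. SCT climbs with GHRL (r of 0.80) and falls with SLC10A2 (r of −0.80) and, mainly through pigs 5 and 7, with GCG (r of −0.75), and pigs 2 and 7 lie near 0 for PDX1 in every panel.

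The levels in the 7 Sd segments were tested for relations between pigs. They are the denominators of the ratios that chose SCT and PDX1, so they are not fully independent of that choice. Of 11 pairs, none had a Benjamini-Hochberg adjusted p under 0.05. The closest was PDX1 with CCK, with Pearson's r of 0.80 (exact two-sided permutation p = 0.0298, adjusted 0.327) and Spearman's rho of 0.89 (exact permutation p = 0.0123, adjusted 0.135). For SCT the highest rho was with SST, 0.82 (exact permutation p = 0.0341, adjusted 0.176), and next with GHRL, 0.79 (exact permutation p = 0.0480, adjusted 0.176), with Pearson's r of 0.64 (exact permutation p = 0.155) and 0.65 (exact permutation p = 0.146). SCT with PDX1 gave r of 0.64 (exact permutation p = 0.119, adjusted 0.340) and rho of 0.64 (exact permutation p = 0.139, adjusted 0.255).

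With GCG and CHGA the Sd levels of SCT and PDX1 had r between −0.09 and 0.24, and exact permutation p-values from 0.635 to 0.908. After leaving out the 2 pigs farthest from the median of the first gene, r of PDX1 with CCK was 0.88, that of SCT with SST 0.60, with GHRL 0.43, with PDX1 0.42 and with CCK 0.35. That of SCT with GCG turned to −0.53, and that of PDX1 with GCG went from 0.07 to 0.60. Without pig 7, the pairs PDX1 with CCK (r of 0.90) and SCT with SST (r of 0.96) each had an adjusted exact permutation p of 0.0458. Without pig 2, PDX1 with CCK was at 0.91 with an adjusted exact permutation p of 0.0306.

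**Figure D4:**
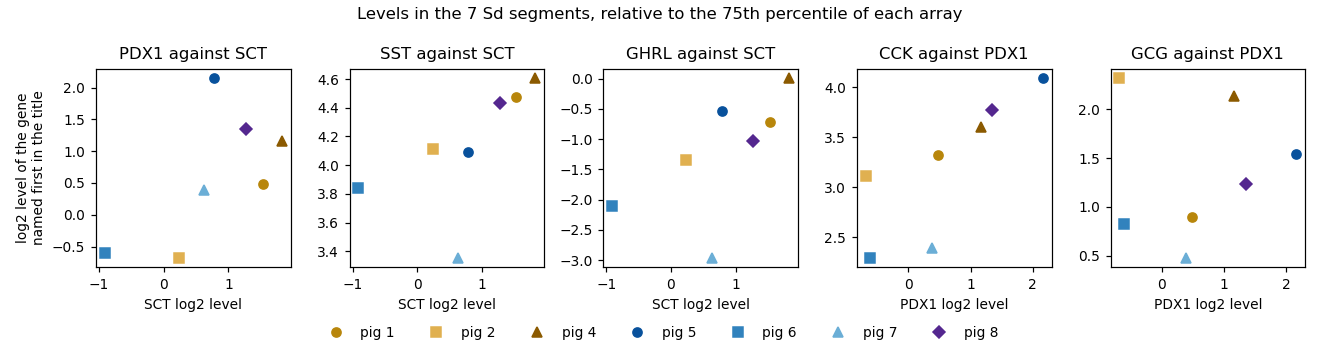
Log2 levels in the 7 Sd segments, relative to the 75th percentile of each array, of PDX1, SST and GHRL against SCT and of CCK and GCG against PDX1, with 1 point per pig. Pig 6 is lowest for SCT and pig 2 for PDX1, and CCK climbs with PDX1 (rho of 0.89), while GCG against PDX1 has a rho of 0.11.

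Of 4 further gut hormone genes that could be tested, only MLN was past the thresholds. MLN encodes motilin, which starts the sweeping contractions of the fasting stomach and duodenum. Its Sd level was −4.14, −3.82 and −2.66 in pigs 1, 2 and 4 and −4.05 and −2.04 in pigs 5 and 8, and it was at the lower limit in pigs 6 and 7. With YOd it was at −0.84, −3.83 and −0.49, and with WOd at −1.78, −4.29, −4.35 and −1.40. MLN was upregulated by a log2 fold change of 1.82 (SE 0.56, limma adjusted p 0.386) in YOd/Sd and of 1.23 (SE 0.39, limma adjusted p 0.606) over 7 pigs, and was at 0.78 (SE 0.36) in WOd/Sd. Its second probe gave ratios of 1.49, 0.13 and 1.46 with YOd and 1.94, 0.35, −0.15 and 0.86 with WOd, again highest in pigs 1, 4 and 5. Gastrin (GAST), guanylin (GUCA2A) and uroguanylin (GUCA2B) were at 0.08, 0.13 and −0.13 over 7 pigs, and the GUCA2A probe was saturated on all 14 arrays.

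Genes for the granules and serotonin that endocrine cells share were also followed. Of 19 granule and serotonin genes listed, 8 were on the array under a name and 5 could be tested, and none was past the thresholds in any comparison. In YOd/Sd all 5 were above 0 with a median of 0.48, beside 0.14 for all genes. SCG5, a chaperone of prohormone processing, was at 0.56, the granin SCG2 at 0.48, carboxypeptidase E (CPE) at 0.48, chromogranin B (CHGB) at 0.22 and the prohormone convertase PCSK1 at 0.07. In WOd/Sd their median was −0.05 and 2 of 5 were above 0. CHGB and SCG2 ratios had r of 0.15 and 0.08 with those of SCT across the pigs, and of 0.45 and 0.78 without pigs 5 and 7, while PCSK1, which was above the lower limit on 12 of 14 arrays, had r of 0.86 on ratios of −0.38 to 0.37.

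The transcription factors that make enteroendocrine cells could not be followed. PAX6 was the sole named gene of 16 and was at the lower limit on all arrays. Of 9 regional and hepatic factors tested, which include GATA4, a factor of the proximal intestine, and the hepatic factor HNF4A, none was past the thresholds in YOd/Sd, in WOd/Sd or over 7 pigs, and their medians were −0.01, 0.14 and 0.03. KLF5, a factor of dividing crypt cells, was past the thresholds for the YOd minus WOd difference alone, at −0.72 (SE 0.26, limma adjusted p 0.853). Among hormone receptors, SSTR3, a receptor for somatostatin, was upregulated in YOd/Sd by 0.69 (SE 0.22, limma adjusted p 0.386), alone among 4 tested. None of 4 nutrient sensors and transporters tested, SLC5A1, SLC15A1, CD36 and TAS1R3, was past the thresholds in any comparison. The SLC5A1 ratio ran close to that of the saturated GUCA2A probe, at 0.62 beside 0.67 in pig 4, and saturation of its probe was not checked.

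Of the genes that mark position along the small intestine, FOLH1, SLC46A1 and SLC10A2 moved in the same pigs as SCT and PDX1. Most others were not seen to. FOLH1, which trims dietary folate at the brush border, and SLC46A1, which carries folate into the cell, are both genes of the duodenum and upper jejunum. The FOLH1 probe is named so by the study's table, whereas its accession carries the symbol FOLH1B in the RefSeq table. The study listed there genes that were over 1.5-fold up or down with onion in several of these same pigs. FOLH1, like SCT, was thus named through a list chosen on its own ratios, which are given as a description. The FOLH1 ratio was 2.53, −0.03 and 2.13 with YOd and 2.00, 1.20, −1.14 and 0.72 with WOd, and had r of 0.92 with SCT and of 0.83 with PDX1. Without pigs 5 and 7 the r with SCT was 0.95, and without pigs 2 and 7 that with PDX1 was 0.30. The SLC46A1 ratio was 1.60, −0.02 and 1.47 with YOd and 1.82, 1.05, −0.83 and 0.81 with WOd, and its r was 0.96 with SCT and 0.80 with PDX1. Without the same pairs of pigs it was 0.93 with SCT and −0.14 with PDX1. The high r of both folate genes with PDX1 thus rested on pigs 2 and 7. PDX1 and both folate genes were higher with onion in each of pigs 1, 4, 5, 6 and 8. The choice of PDX1 and the naming of FOLH1 rested on ratios of these same pigs, so this shared direction is a description only. The sign of the ratio was the same for SCT and for both folate genes in 7 of 7 pigs, pig 7 included. In pig 2 all of these ratios were near 0, so their sign there carries little.

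SLC10A2, which recovers bile acids in the ileum, went the other way. Its log2 ratio was −1.01, 0.00 and −2.57 with YOd and −1.58, −0.51, 1.18 and −0.69 with WOd, with the onion segments of pigs 4 and 8 at the lower limit, and its r was −0.80 with SCT and −0.78 with PDX1, which went to −0.60 without pigs 5 and 7 and to −0.37 without pigs 2 and 7. In YOd/Sd it was downregulated by a log2 fold change of −1.19 (SE 0.44, limma adjusted p 0.386). In pig 7, SCT and both folate genes were lower in the onion segment, PDX1, GHRL and MLN were nearly level, and SLC10A2 and GCG were higher. GCG was not alone among the hormone-cell genes of that pig. SST and CHGA were each at 0.33, GAST at 0.49 and GUCA2B at 0.51, and the granule genes had a median of 0.40 with 4 of 5 above 0. The part of segment position in the SCT and PDX1 ratios was not tested.

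Not all genes of either list were past the thresholds. Of 9 proximal genes tested, FOLH1 and SLC46A1 were past the thresholds in YOd/Sd and over 7 pigs, and the other 7 were not. The place of FOLH1 follows in part from how its probe was named. CYBRD1 and SLC11A2, for iron, were at −0.02 and 0.01 over 7 pigs, and APOA1, APOA4 and FABP1, for fat, at 0.13 to 0.17. The ratios of these fat genes ran close to those of the saturated GUCA2A probe. In pig 4 they were 0.55 to 0.62, beside 0.67 for GUCA2A, and in pig 8 0.20 to 0.21, beside 0.21. Whether their own probes were saturated was not checked, and a saturated probe can hide a change. The proximal list, with FABP1 as its middle gene, had a median of 0.29 in YOd/Sd and 0.05 in WOd/Sd, beside 0.14 and 0.05 for all genes. Of 3 distal genes, only SLC10A2 was past the thresholds, and in YOd/Sd alone. FABP6, the ileal bile acid binding protein, had ratios from −6.04 in pig 6 to 1.53 in pig 5. It was also higher in pig 1, by 1.30, so that in pigs 1 and 5 it ran opposite to SLC10A2.

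**Figure D5:**
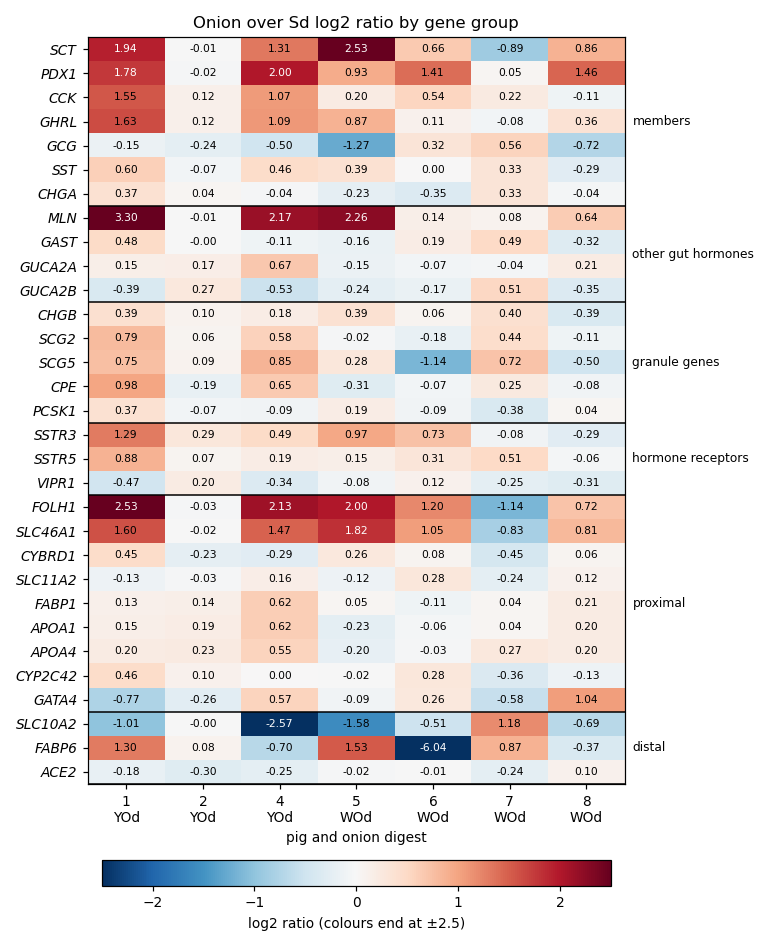
Onion over Sd log2 ratio of the members, other gut hormones, granule genes, hormone receptors and genes of the proximal and distal small intestine (rows) in 7 pigs (columns), with each value printed and colours ending at ±2.5. The columns of pigs 1, 4 and 5 are red for SCT, PDX1, GHRL, MLN, FOLH1 and SLC46A1 and blue for SLC10A2, and the column of pig 2 is pale.

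Markers of other cells also varied between the segments. The summed level of 8 lymphocyte genes was 2.17 to 8.78 in Sd, 4.80 to 6.43 with YOd and 2.24 to 8.92 with WOd. In pig 6 the B cell genes CD79A and MS4A1 were lower in the WOd segment, with log2 ratios of −4.18 and −5.35, and the SCT ratio of that pig was 0.66. Summed levels of 8 pancreas genes, 7.90 to 12.9 with WOd, 8.50 to 11.9 with YOd and 8.17 to 15.6 with Sd, overlapped between groups, and insulin was above the lower limit on 1 of 14 arrays. Of 3 gastric genes, GKN1 was at the lower limit on all arrays and the pepsinogen gene PGA5 was upregulated in WOd/Sd by 0.69 (SE 0.23, limma adjusted p 0.999), with a YOd minus WOd difference of −0.95 (SE 0.31, limma adjusted p 0.853). CD3D, a gene of T cells, was past the thresholds for the YOd minus WOd difference alone, at 0.69 (SE 0.26, limma adjusted p 0.853). Enterocyte, goblet, crypt and smooth muscle lists had no gene past the thresholds in any comparison, and their YOd/Sd medians were 0.31, −0.06, 0.31 and −0.04. The medians of 0.31 were those of DPP4 and LYZ. Ratios of ANPEP, DPP4, FABP2, MTTP and LYZ ran close to those of the saturated GUCA2A probe. In pig 4 they were 0.53 to 0.67, beside 0.67 for GUCA2A. Saturation of their probes was not checked, so the enterocyte and crypt medians may not show a change in these cells. The part of these cells in the SCT and PDX1 ratios was not tested.

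The genes whose ratios were most like that of SCT across the 7 pigs, among 2182 named genes above the lower limit on all arrays, were SLC46A1 (r of 0.96), the lysosomal scaffold subunit LAMTOR2 (0.95), the galactose mutarotase GALM (0.94), the telomerase subunit TERT (0.94) and the troponin TNNT1 (0.94). Over all of these genes the median r with SCT was 0.08 and the 95th percentile 0.78. Apart from SLC46A1, whose mean ratio was 0.84 ± 0.96 (SD, n = 7), they had means of 0.04 to 0.14 over ratios of both signs, which for TERT ran from −0.78 in pig 7 to 0.73 in pig 5. GHRL ranked 97 and PDX1 226 by likeness to SCT, and GCG, at 2120 of 2182, was near the other end.

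For PDX1 the closest genes were the oxysterol hydroxylase CYP39A1 (r of 0.94), MTURN (0.94), the sialyltransferase ST6GALNAC4 (0.92), the lysosomal protease CTSZ (0.90) and DGAT2, which makes triglyceride (0.90). The median r with PDX1 was 0.14 and the 95th percentile 0.71. DGAT2 had the largest mean ratio of the 5, 0.72 ± 0.75 (SD, n = 7). FOLH1 ranked 28, GHRL 131, SCT 190 and CCK 211 by likeness to PDX1, all but FOLH1 below the 95th percentile. These ranks rest on 7 ratios per gene and carry no test.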

How the data were processed

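Cy3-labelled RNA of 14 mucosal scrapings was measured on 1-colour Agilent pig arrays. The authors deposited scanner output of Feature Extraction 10.7.3.1, in which the processed signal is a background-subtracted intensity, and a table of processed log2 values, centred on 0 for each probe and used as an alternative. Spots flagged as outliers were dropped, spots of 1 probe averaged, and each array divided by its 75th percentile. Values were floored at the pooled 40th percentile (log2 −4.43), as the methods floor theirs, and log2 was taken. The brightest probe stood for a gene. Names came from RefSeq accessions through a Sscrofa11.1 gene table (6686 probes, 3020 genes), and those of SCT and FOLH1 from the study's gene table. The files name no genome build, so no position is given.

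Comparisons used limma 3.58.1 (R 4.3.3), blocked on pig, over genes above the floor on at least as many arrays as the smaller group of the comparison held, and the code was tested on simulated data. The thresholds of the methods, a raw p under 0.05 and a fold change over 1.5, were used with Benjamini-Hochberg adjusted p beside them. Replicates are separate pigs. Segments of a pig varied together (r of 0.52 to 0.75 over 2183 genes). Sd levels were correlated with exact two-sided permutation tests in scipy 1.17.1. The number of arrays limits the precision. Named were the members, list genes past the thresholds, the tested hormone genes and the 5 genes most like SCT and PDX1. Other list genes named without passing were picked after their values were seen. Members and lists were chosen with earlier results of these data known. Alternatives covered background correction, for which the median spot signal stood in for the mean, scaling, floor, filter, probe choice, the block, slides and each pig left out. Leaving out pigs 2 and 7 together was chosen after seeing the data. Some list genes are not reported here.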

Additional observations from a re-analysis of the deposited data

How the results depend on the processing

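PDX1 was higher with onion under every alternative run, by log2 fold changes of 0.63 to 1.89 in YOd/Sd, 0.55 to 1.26 in WOd/Sd and 0.58 to 1.51 over 7 pigs, and SCT by 0.65 to 1.62, 0.21 to 1.35 and 0.64 to 1.46. Both genes were chosen for raised ratios on these same arrays, and some alternatives leave the estimate unchanged by construction. The ranges therefore do not test the direction. The place of SCT and PDX1 against the thresholds was not stable. The number of arrays and the lack of any adjusted p under 0.05 limit all calls, probes near the floor understate differences, and the causes of the changes below were not tested except where fewer pigs or other genes entered the fit by construction.

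Genes past the thresholds in YOd/Sd, 112, numbered 10 in the authors' processed values, 1303 over every probe, 20 with no filter on dim genes, 66 with normexp background correction, 63 with quantile normalization, 326 with slide as a block, 328 without pigs 2 and 7, and 56 to 328 with each pig left out. The same settings for WOd/Sd, 29, gave 12, 327, 17, 12, a count within 1.5 times for quantile normalization, 88, 86 and 43 to 86, where normexp left 5 of 12 upregulated. Over 7 pigs, 31, they gave 16, 216, 20, 78 with slide as a block, 79 without pigs 2 and 7 and 18 to 50 with each pig left out, and 16 with no scaling, 4 of them upregulated. For the YOd minus WOd difference, 88, they gave 38, 1570, 47, 48 with normexp, 191 with slide as a block, 193 without pigs 2 and 7 and 44 to 153, and with no scaling 6 of 98 were upregulated. Without the replicate block, that is with the pairing by pig ignored, the counts were 20, 10, 10 and 5 in the order of comparisons above, and 0 members were past the thresholds in each.

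Against 4 members past them in YOd/Sd there were 0 in the authors' values or with no filter, 2 with no scaling, and 0 to 4 with each pig left out. In WOd/Sd the count of 1 went to 0 with the mean of all probes, to 2 with slide as a block or without pigs 2 and 7, and to 1 to 2 with each pig left out. Over 7 pigs the count of 3 went to 1 in the authors' values or with no scaling and to 1 to 4 with each pig left out. For the difference it went from 0 to 2 with slide as a block or without pigs 2 and 7, and to 0 to 2 with each pig left out. The number of Sd pairs with an adjusted exact permutation p under 0.05 was 0 to 2 with each pig left out.

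Some directions turned. CHGA turned to −0.022 in the authors' values and −0.18 with no scaling in YOd/Sd, and over 7 pigs to −0.085, −0.14, −0.023 with quantile normalization and −0.056 with slide as a block or without pigs 2 and 7. With each pig left out CHGA lay between −0.048 and 0.073 over 7 pigs and between −0.21 and 0.019 in WOd/Sd, and GCG between −0.56 and 0.054 in WOd/Sd. The YOd minus WOd difference with each pig left out lay between −0.27 and 0.87 for SCT, −0.084 and 0.93 for PDX1 and −0.35 and 0.26 for GCG. That of GCG was 0.036 with normexp and 0.23 with slide as a block or without pigs 2 and 7, and with no scaling SST was at −0.056 and CHGA at −0.078. Among Sd levels with each pig left out, r lay between −0.050 and 0.53 for SCT with GCG, −0.48 and 0.20 for SCT with CHGA, −0.13 and 0.62 for PDX1 with GCG and −0.0034 and 0.30 for PDX1 with CHGA. SCT with CHGA was at 0.36 with no scaling and PDX1 with GCG at −0.039 with normexp.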
